A study of Mus musculus with 12 samples.

Results

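Agt, Ace, Agtr1a, Edn1, Ece1, Ednra and Ednrb, the genes of the renin-angiotensin and endothelin systems followed here, were taken by symbol from a table of normalized read counts of mouse heart tissue. They are 7 of its 16218 genes. All 7 passed the filter on low values, a mean of 5 or more over 12 libraries, which 14906 genes passed. The hearts came from wild-type female mice aged 12 weeks in 3 groups of 4 animals, with 1 library each. MI+Agrin animals had a myocardial infarction, made by tying off the left anterior descending coronary artery for good, and were treated with agrin, a large proteoglycan of the extracellular matrix. MI+PBS animals had the same ligation and were treated with phosphate-buffered saline, the vehicle. Sham animals had a sham operation. Surgery was done under isoflurane with buprenorphine as analgesic, and RNA was extracted 2 weeks after infarction. The sources used here give neither the dose, route and time of the agrin treatment nor the part of the heart taken.

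Both systems make small peptides that constrict vessels and act on heart muscle and fibroblasts. Angiotensinogen, the product of Agt, is cut by renin and then by angiotensin-converting enzyme (Ace) to angiotensin II, which acts mainly through the type 1 receptor (Agtr1a and its paralogue Agtr1b in rodents). Endothelin-1 is cut from a larger precursor, the product of Edn1, by endothelin-converting enzyme (Ece1) and acts through receptors A (Ednra), known mainly from smooth muscle and cardiomyocytes, and B (Ednrb), known mainly from endothelium, where it also clears the peptide. Drugs that block angiotensin-converting enzyme or the type 1 receptor are standard treatment after infarction.

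Depth was 20238512 to 22742027 recovered reads in 11 libraries, and sham replicate 2 summed to 21695925 normalized counts. The 12 cardiomyocyte markers summed to at least 1421815.4 normalized counts in every library, so that the labelled tissue carried its defining markers. That lowest sum belonged to MI+PBS replicate 2, whose group otherwise ranged from 1987332.5 to 2083599.6. Sham replicate 2 held 661.06 normalized counts of the airway gene Scgb1a1, against 0 to 1.06 in the other 11 libraries. MI+PBS replicate 1 held 176.87 normalized counts of the liver gene Alb, against 0 to 2.03 in the others. In whole tissue, fewer cells of a type and less RNA per cell cannot be told apart.

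The start regions of the members that were higher in MI+PBS than in sham hearts are shown because these genes moved in one direction. Each is the RefSeq window of 250 bases before to 50 bases after the transcript start in GRCm38.p6, on the strand of the gene. Capitals mark matches, on either strand, to 5 short motifs. The letters TATAAA stand for the TATA box. The CCAAT box was searched by the letters of its name. The site of GATA factors was searched as AGATAA. The letters TGANTCA stand for the AP-1 site. The core of the hypoxia response element was searched as ACGTG. For Ace it is 1 of 2 windows in the table. The windows are chr8:124569657-124569956 on the minus strand for Agt, chr11:105967698-105967997 on the plus strand for Ace, chr13:42301226-42301525 on the plus strand for Edn1 and chr14:103843652-103843951 on the minus strand for Ednrb.
Agt: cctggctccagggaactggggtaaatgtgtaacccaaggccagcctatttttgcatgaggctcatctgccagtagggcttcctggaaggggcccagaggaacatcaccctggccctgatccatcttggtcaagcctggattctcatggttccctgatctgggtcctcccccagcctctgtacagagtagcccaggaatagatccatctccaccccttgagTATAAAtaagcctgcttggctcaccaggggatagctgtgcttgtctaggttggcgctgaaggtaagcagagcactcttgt
Ace: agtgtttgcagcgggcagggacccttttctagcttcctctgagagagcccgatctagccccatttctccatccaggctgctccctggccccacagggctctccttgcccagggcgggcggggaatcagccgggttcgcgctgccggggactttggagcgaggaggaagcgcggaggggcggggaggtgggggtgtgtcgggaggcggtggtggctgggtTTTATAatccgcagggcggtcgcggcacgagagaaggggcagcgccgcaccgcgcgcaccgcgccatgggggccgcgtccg
Edn1: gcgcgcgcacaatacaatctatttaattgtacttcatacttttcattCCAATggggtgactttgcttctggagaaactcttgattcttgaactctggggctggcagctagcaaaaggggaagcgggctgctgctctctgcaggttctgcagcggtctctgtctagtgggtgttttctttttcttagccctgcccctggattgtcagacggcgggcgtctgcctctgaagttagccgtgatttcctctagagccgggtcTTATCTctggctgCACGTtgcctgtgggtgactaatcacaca
Ednrb: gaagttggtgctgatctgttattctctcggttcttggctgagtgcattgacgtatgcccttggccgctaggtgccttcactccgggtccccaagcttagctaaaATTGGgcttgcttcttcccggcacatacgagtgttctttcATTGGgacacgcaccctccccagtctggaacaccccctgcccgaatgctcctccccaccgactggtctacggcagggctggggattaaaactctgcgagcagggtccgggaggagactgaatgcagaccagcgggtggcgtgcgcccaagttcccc

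Agt held 1 match to the TATA box on the strand of the gene, beginning 30 bases before the start. Ace held 1 match on the opposite strand, printed as TTTATA from 31 bases before the start. On either strand the motif was found in 13.6% of all 32851 promoter windows. Ednrb held 2 matches to the CCAAT box (37.4% of windows). Edn1 held 1 match each to the CCAAT box, to GATA (11.2% of windows) and to the hypoxia response core (19.6% of windows). No match to the AP-1 letters (7.8% of windows) lay in any of these windows. Windows of 6 of the 7 members were found, and Agtr1a had no entry.

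The first comparison, MI+PBS against sham, describes the infarcted heart without agrin. Agt, Ace, Edn1 and Ednrb rose after infarction and Agtr1a fell, whereas Ednra and Ece1 did not pass the test. Thus 5 of 7 members passed (44.4% of all genes tested did), of which 4 rose (22.6% of all genes) and 1 fell (21.8% of all genes). An unadjusted p under 0.05 was found for 5 members (51.5% of all genes). The median log2 fold change was 0.54 over the members and -0.01 over all genes. Differences are log2 fold changes ± SE on the scale of log2 of the normalized count plus 1, with p-values from limma adjusted by the Benjamini-Hochberg method over all genes at a threshold of 0.05. In 3 of 7 members the values of both groups did not overlap (41.9% of all genes), with 2 higher (21.6%) and 1 lower (20.4%) after infarction.

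Agt, the substrate of renin, stood at 394, 309, 212 and 337 normalized counts in MI+Agrin hearts, at 237, 138, 255 and 278 in MI+PBS hearts and at 106, 169, 150.05 and 94.6 in sham hearts. MI+PBS replicate 2 lay inside the sham range, and all the other infarcted hearts lay above it. The rise in MI+PBS over sham was 0.79 ± 0.25 (adjusted p = 0.022), or 1.73-fold. It passed in 19 of 24 alternative fits, among them DESeq2 on recovered reads (adjusted p = 0.0277). It missed the threshold with edgeR on recovered reads (adjusted p = 0.0567). Both of these fits lacked sham replicate 2. The rise also missed when MI+PBS replicate 3, MI+PBS replicate 5, sham replicate 2 or sham replicate 5 was left out (limma adjusted p from 0.0564 to 0.0683). Without MI+PBS replicate 2 it was 1.01 ± 0.225 (limma adjusted p = 0.00425). Without MI+PBS replicate 1, the library with Alb, the rise was 0.75 ± 0.28 (limma adjusted p = 0.049). The gene lies on chromosome 8 from 124556534 to 124569706 on the minus strand (mm10).

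Agt is also made by liver and fat. Of 6 hepatocyte markers, 5 were measured and 3 tested, and their sum ran from 273.4 to 483.4 normalized counts in MI+Agrin, from 318.2 to 516.8 in MI+PBS and from 153.6 to 305.4 in sham libraries. Most of that sum was Ahsg in every library, while Alb was at or near 0 in all libraries except MI+PBS replicate 1. The sum of 6 adipocyte markers ran from 1174.7 to 4368.9 in MI+Agrin, from 655.0 to 2305.3 in MI+PBS and from 1096.4 to 2330.9 in sham libraries. MI+Agrin replicate 1 held the highest Agt value and the highest adipocyte sum, and MI+Agrin replicate 4 the lowest Agt value of its group beside an adipocyte sum of 3028.9. The part of these cells in the Agt values was not tested.

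Ace, the enzyme that makes angiotensin II, stood at 2846, 2451, 2599.95 and 2816 normalized counts in MI+Agrin hearts, at 2778, 2818, 2908 and 3064 in MI+PBS hearts and at 1958, 1858, 2003 and 2165 in sham hearts. Every infarcted heart lay above every sham heart. The rise in MI+PBS over sham was 0.54 ± 0.06 (adjusted p = 5.65e-05), or 1.45-fold. Its coefficient of variation was 7.0% in MI+Agrin, 4.4% in MI+PBS and 6.4% in sham libraries. Ace lies on chromosome 11 from 105967945 to 105989964 on the plus strand, and 5.58% of its exon bases are shared with Gm11651.

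Agtr1a, the main type 1 receptor of angiotensin II, stood at 572, 566, 462 and 452 normalized counts in MI+Agrin hearts, at 595, 418, 396 and 492 in MI+PBS hearts and at 870.3, 883, 1189.81 and 869 in sham hearts. Every infarcted heart lay below every sham heart, and sham replicate 4 stood above the other sham hearts. The log2 fold change of Agtr1a in MI+PBS over sham was -1.01 ± 0.14 (adjusted p = 0.000159), a fall to 0.497-fold. Of all genes tested, 92.3% had a smaller change in this comparison. Leaving out any 1 library gave log2 fold changes within -1.12 to -0.90. The gene lies on chromosome 13 from 30336441 to 30382867 on the plus strand. Its paralogue Agtr1b has a closely similar sequence and was not among the 16218 genes, so the assignment of reads between both copies is uncertain.

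Edn1, the endothelin-1 precursor gene, stood at 189, 196, 203 and 135 normalized counts in MI+Agrin hearts, at 162, 285, 220.1 and 225 in MI+PBS hearts and at 107, 128, 119 and 174 in sham hearts. Sham replicate 5 lay above MI+PBS replicate 1, so that MI+PBS and sham overlapped by 1 library each. The rise in MI+PBS over sham was 0.75 ± 0.19 (adjusted p = 0.00696), or 1.68-fold, and passed in all 24 alternative fits. MI+PBS replicate 2 held the highest value, and without it the rise was 0.62 ± 0.19 (limma adjusted p = 0.0235). Edn1 lies on chromosome 13 from 42301476 to 42307990 on the plus strand.

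Ednrb, the endothelin receptor of endothelium, stood at 1801, 1266, 1583 and 1319.57 normalized counts in MI+Agrin hearts, at 1433, 1331, 1731 and 1847 in MI+PBS hearts and at 975.4, 1072, 979.54 and 777 in sham hearts. Every infarcted heart lay above every sham heart. The rise in MI+PBS over sham was 0.73 ± 0.14 (adjusted p = 0.000897), or 1.66-fold. The gene lies on chromosome 14 from 103814625 to 103844402 on the minus strand.

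Ednra, the receptor that mediates constriction, stood at 2073.5, 2351, 2504 and 2321 normalized counts in MI+Agrin hearts, at 1811, 1446, 2488 and 2207 in MI+PBS hearts and at 1564, 1857, 2189 and 1884 in sham hearts. The MI+PBS hearts reached below and above the sham hearts. The log2 fold change of MI+PBS over sham was 0.07 ± 0.15 (adjusted p = 0.742), with a 95% interval from -0.25 to 0.38. Ece1, the converting enzyme, stood at 4027, 3733, 3927 and 3542 normalized counts in MI+Agrin hearts, at 3672, 4935, 4133 and 4377 in MI+PBS hearts and at 3750.05, 3414, 3751 and 4117 in sham hearts. MI+PBS replicate 2 held the highest Ece1 value, as it did for Edn1, and the groups overlapped. The log2 fold change of Ece1 in MI+PBS over sham was 0.18 ± 0.08 (adjusted p = 0.0983), with a 95% interval from -0.0007 to 0.37, and it passed without MI+PBS replicate 1 (0.25, limma adjusted p = 0.0211). Ednra lies on chromosome 8 from 77663031 to 77724464 on the minus strand and Ece1 on chromosome 4 from 137862237 to 137965229 on the plus strand.

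**Figure D1:**
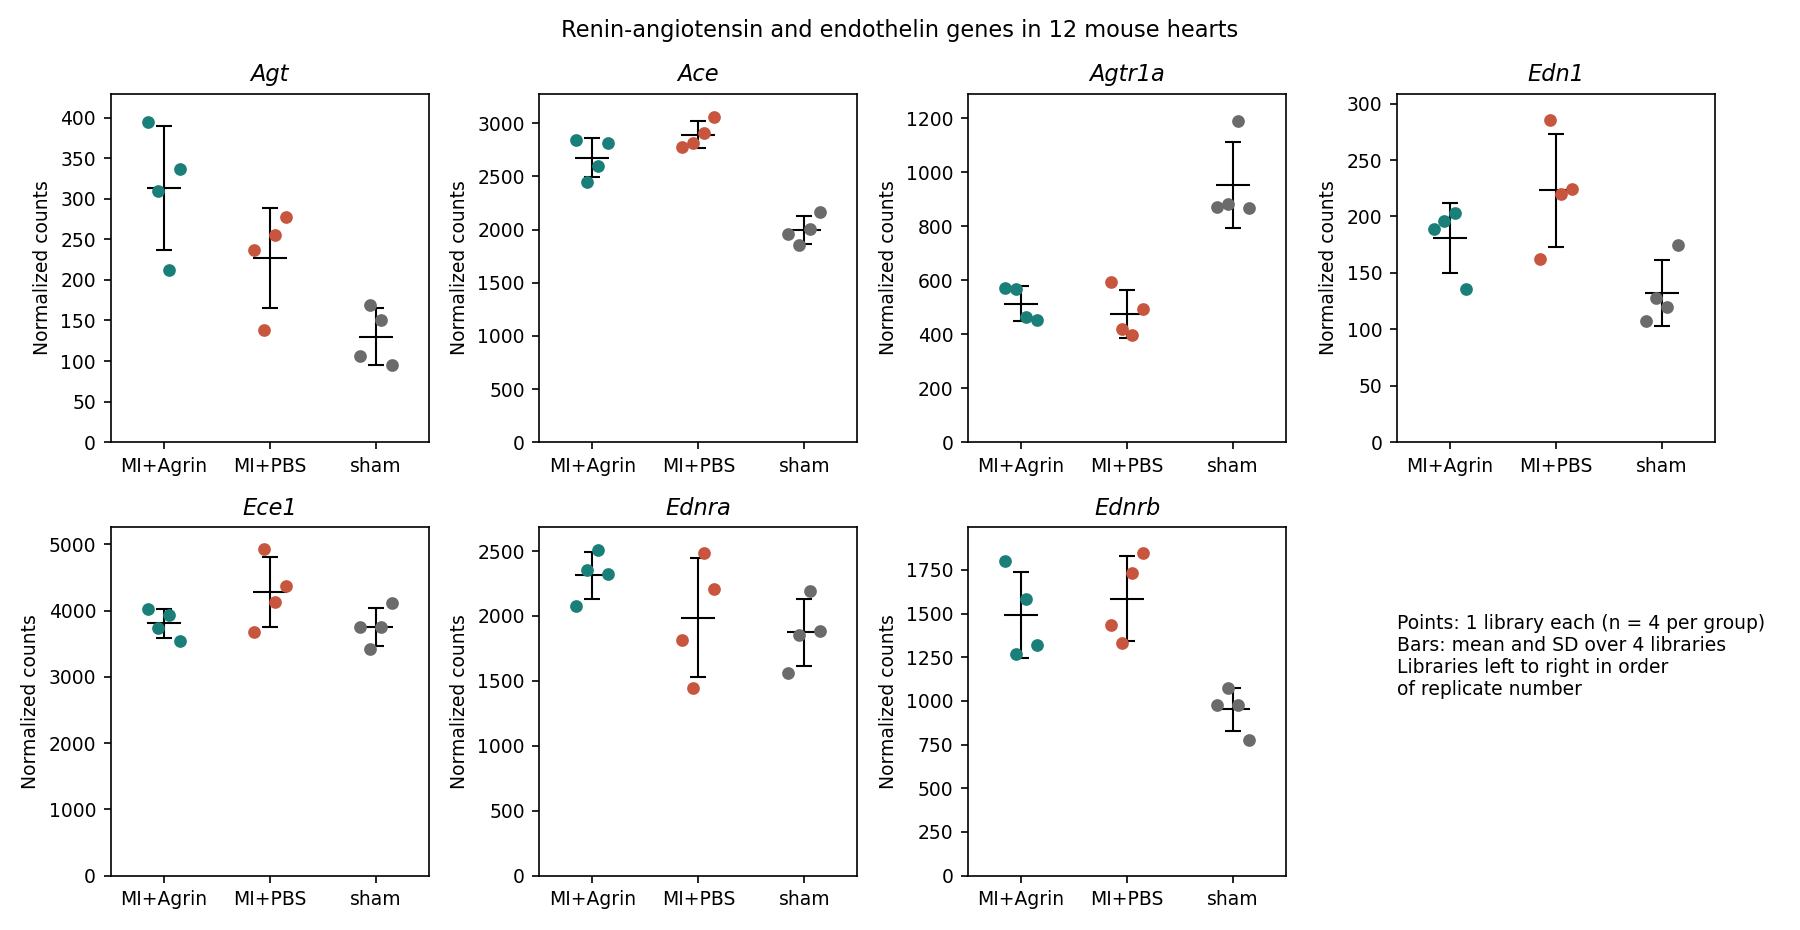
Normalized counts (vertical axes, from 0) of the 7 genes in each library, with MI+Agrin, MI+PBS and sham side by side and bars for the mean and SD of 4 libraries. Ace and Ednrb sit higher, and Agtr1a lower, in all 8 infarcted hearts than in the 4 sham hearts, while the groups of Ednra and Ece1 overlap.

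Levels of some cell type markers also differed between the groups. The 15 endothelial markers summed to 50802.3 to 53952.0 normalized counts in MI+Agrin, 48325.3 to 51780.3 in MI+PBS and 49517.8 to 53058.7 in sham libraries, of which 1 rose and 2 fell after infarction with PBS. The endothelial sum overlapped between all groups. Of 5 endocardial markers, 2 rose and 0 fell against sham in MI+PBS and also in MI+Agrin, and their sum overlapped between all groups. The 12 fibroblast markers summed to 250231.0 to 299821.3 in MI+Agrin, 277046.4 to 324186.1 in MI+PBS and 181674.9 to 218611.1 in sham libraries. Much of this sum came from 2 collagen genes, so it does not stand for the whole list. Col1a1 averaged 52864 in MI+Agrin, 63347 in MI+PBS and 19467 in sham hearts. Col3a1 averaged 104932 in MI+Agrin, 128828 in MI+PBS and 53142 in sham hearts. In MI+PBS against sham 4 of the 12 fibroblast markers rose and 3 fell, with a median log2 fold change of 0.12. The 12 pericyte and smooth muscle markers summed to 31029.1 to 35586.0 in MI+Agrin, 32995.8 to 38400.0 in MI+PBS and 35019.0 to 36801.9 in sham libraries. Against sham, 5 of them rose and 4 fell in MI+PBS, and 3 rose and 4 fell in MI+Agrin. The 12 cardiomyocyte markers summed to 2013903.6 to 2295917.2 in MI+Agrin, 1421815.4 to 2083599.6 in MI+PBS and 2400434.1 to 2736552.0 in sham libraries. Their sum was lower in every infarcted heart than in every sham heart. Against sham, 7 of them fell past the threshold in MI+PBS and 5 in MI+Agrin, and 0 rose. Macrophage markers (9 of 10 measured) were higher, at 31093.4 to 46967.1 in MI+Agrin and 41224.7 to 48573.2 in MI+PBS, against 21287.7 to 26577.0 in sham libraries. All 9 rose past the threshold in both comparisons with sham. Of all genes tested, 22.6% rose and 21.8% fell in MI+PBS against sham. In MI+Agrin against sham 15.4% rose and 13.2% fell. The part of the cell makeup in the changes of the members was not tested. Without sham replicate 2, the library with Scgb1a1, the rises of Ace (0.53), Edn1 (0.66) and Ednrb (0.75) and the fall of Agtr1a (-1.05) passed (limma adjusted p from 0.000332 to 0.0242), and that of Agt was 0.71 (adjusted p = 0.0618).

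The second comparison, MI+Agrin against MI+PBS, sets the treatment against its vehicle after the same operation. None of the 7 members passed, by limma, edgeR or DESeq2, and 0 of 7 had an unadjusted limma p under 0.05, where 1.64% of all genes passed (0.751% upward and 0.892% downward) and 18.8% had an unadjusted p under 0.05. In each of the 7 the groups overlapped, whereas 9.04% of all genes did not overlap, 4.12% being higher and 4.92% lower with agrin. Agt averaged 313 ± 76.1 normalized counts in MI+Agrin and 227 ± 61.8 in MI+PBS hearts (SD, n = 4 each), a log2 fold change of 0.48 ± 0.25 (adjusted p = 0.327) with a 95% interval from -0.07 to 1.02. Edn1 averaged 181 ± 30.8 in MI+Agrin and 223 ± 50.2 in MI+PBS hearts (SD, n = 4 each), a log2 fold change of -0.29 ± 0.19 (adjusted p = 0.423). The intervals leave room for changes of either sign. They were widest for Agt and Edn1 (-0.71 to 0.12) and narrowest for Ace (-0.25 to 0.02).

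The other members did not pass either. Ednra averaged 2313 ± 178 normalized counts in MI+Agrin and 1988 ± 455 in MI+PBS hearts (SD, n = 4 each), with a log2 fold change of 0.24 ± 0.15. In MI+PBS hearts it ran from 1446 in replicate 2 to 2488 in replicate 3. The log2 fold changes of Ece1 (-0.16 ± 0.08), Ace (-0.11 ± 0.06), Agtr1a (0.12 ± 0.14) and Ednrb (-0.09 ± 0.14) had adjusted p-values from 0.319 to 0.762.

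The third comparison sets MI+Agrin against sham, and shares its libraries with both others. Agt, Ace and Ednrb rose and Agtr1a fell, so that 4 of 7 members passed (28.6% of all genes), 3 upward (15.4%) and 1 downward (13.2%), and 5 had an unadjusted p under 0.05 (40.6% of all genes). The 4 that passed had no overlap between the groups (32.4% of all genes, 16.8% higher and 15.6% lower). Agt had the largest difference of the members, 1.27 ± 0.25 (adjusted p = 0.00341) or 2.41-fold, and all 4 MI+Agrin hearts lay above all 4 sham hearts. Agt passed in all 24 alternative fits of this comparison, with log2 fold changes from 1.07 to 1.44. Ace rose by 0.42 ± 0.06 (adjusted p = 0.000663) and Ednrb by 0.64 ± 0.14 (adjusted p = 0.00447), while Agtr1a changed by -0.89 ± 0.14 (adjusted p = 0.000988).

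Edn1 (0.46 ± 0.19, adjusted p = 0.0927), Ednra (0.31 ± 0.15, adjusted p = 0.128) and Ece1 (0.02 ± 0.08, adjusted p = 0.882) did not pass between MI+Agrin and sham hearts. Edn1 passed without MI+Agrin replicate 5 (limma adjusted p = 0.0457) or sham replicate 5 (limma adjusted p = 0.0398). That Edn1 passed in MI+PBS and not in MI+Agrin against sham does not show a difference between the treatments, which was tested directly above. Ednra passed when the 8 libraries of MI+Agrin and sham were fitted alone (limma adjusted p = 0.036).

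**Figure D2:**
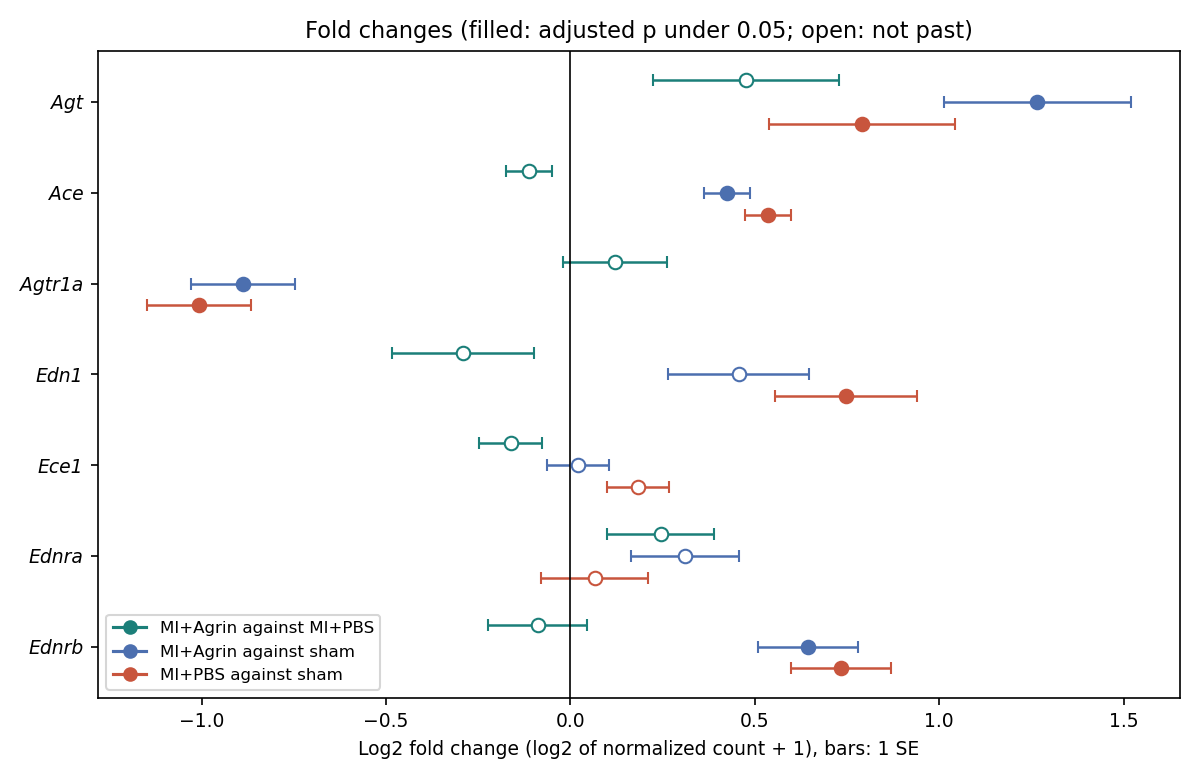
Log2 fold change (horizontal axis, bars 1 SE) of each gene in the 3 comparisons, with filled points for an adjusted p under 0.05. The 7 differences between MI+Agrin and MI+PBS are all open, and Agtr1a alone lies at the left of 0 in both comparisons with sham.

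Per length, the enzymes were the most abundant members and the peptide precursors the least. In units of normalized counts per kilobase of merged exons, Ece1 had a level of 718 ± 40.6 in MI+Agrin, 807 ± 99.2 in MI+PBS and 709 ± 54.1 in sham hearts (SD, n = 4 each). That of Edn1 was 84.5 ± 14.4 in MI+Agrin, 104 ± 23.5 in MI+PBS and 61.8 ± 13.7 in sham hearts (SD, n = 4 each). Over the 12 libraries, the level per length of Ece1 exceeded that of 92.0% of 14003 genes with a known length, and that of Edn1 46.2%. Ece1 came before Ace in every group, with no overlap of their ranges.

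The order below these enzymes differed between the groups. In sham hearts Ednra (342 ± 46.7 per kilobase) and Agtr1a (342 ± 56.7 per kilobase) could not be ordered, Ednra overlapped Ace (378 ± 24.2), and Ednrb (223 ± 29.1) followed below them without overlapping Agtr1a. In MI+PBS hearts Ednrb (372 ± 57.0) and Ednra (363 ± 83.2) overlapped each other, and Agtr1a (171 ± 32.2) lay below both without overlap. In MI+Agrin hearts Ednra (422 ± 32.6) and Ednrb (349.8 ± 58.1) overlapped, above Agtr1a (184 ± 23.2). Agt (166 ± 40.2 in MI+Agrin, 120.1 ± 32.7 in MI+PBS and 68.8 ± 18.8 in sham hearts) overlapped Agtr1a in both infarcted groups but lay below it in sham hearts, where Ednrb stood between them.

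**Figure D3:**
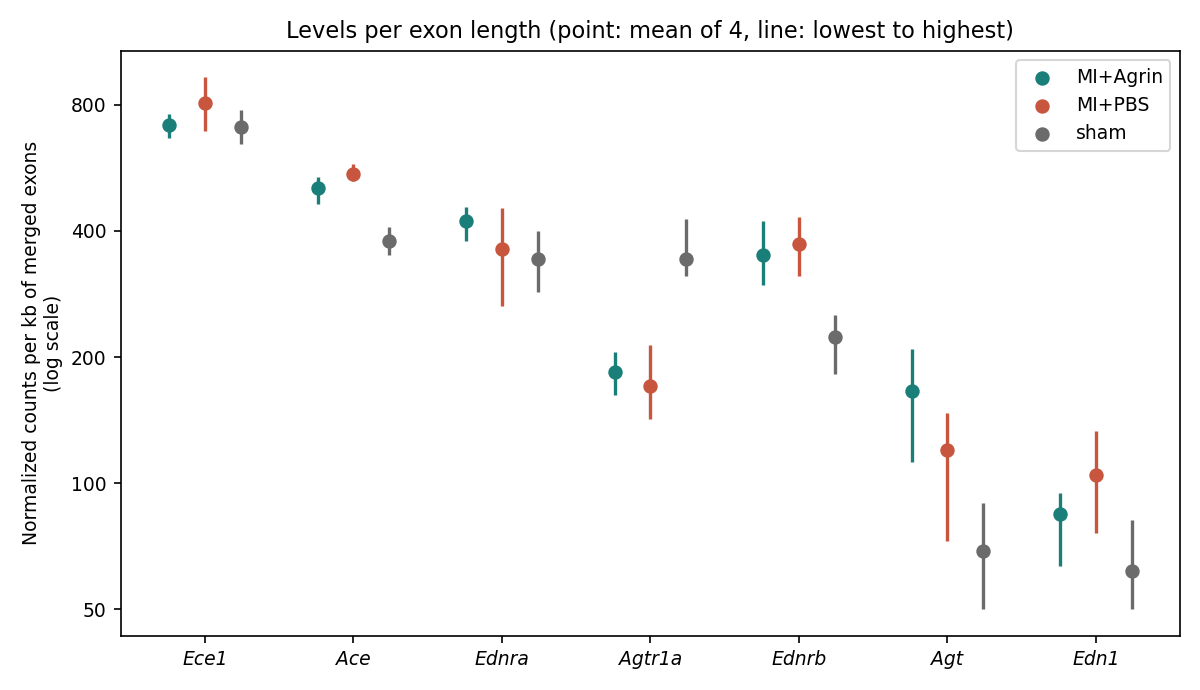
Normalized counts per kilobase of merged exons (vertical log axis) of the 7 genes in order of their sham mean, with a point for the mean and a line from the lowest to the highest of 4 libraries. Agtr1a and Ednra are level in sham hearts at 342 per kilobase, and Agtr1a falls below both endothelin receptors in the infarcted groups.

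A ratio within a library compares genes that share its depth. The ratio of Ednra to Ednrb, per length, was 1.24 ± 0.24 in MI+Agrin, 0.97 ± 0.11 in MI+PBS and 1.56 ± 0.31 in sham hearts (SD, n = 4 each). All MI+PBS hearts lay below all sham hearts, a log2 difference of -0.67 (two-sided exact permutation p = 0.0286, the smallest that 4 against 4 allows, and 0.0571 adjusted over 6 tests of ratios, of which 3 are given here). The log2 difference was 0.33 between MI+Agrin and MI+PBS (exact permutation p = 0.1143, adjusted p = 0.1371) and -0.33 between MI+Agrin and sham (exact permutation p = 0.2286, adjusted p = 0.2286). None of the 3 passed after adjustment.

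**Figure D4:**
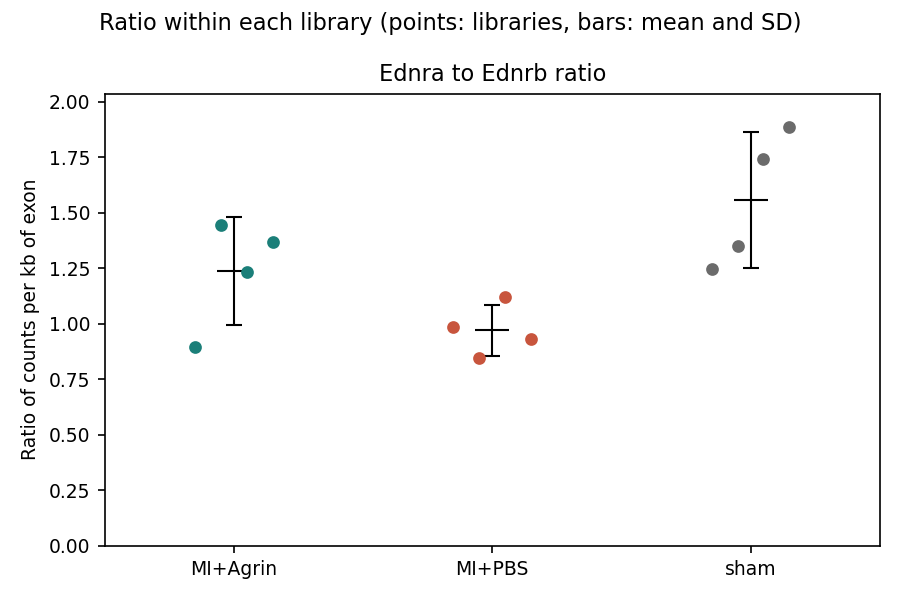
Ratio of Ednra to Ednrb (vertical axis), from counts per kilobase of exon within each library, with MI+Agrin, MI+PBS and sham side by side and bars for the mean and SD of 4 libraries. All 4 MI+PBS hearts lie below the 4 sham hearts, and the MI+Agrin hearts overlap both groups.

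Of 29 other genes of the renin-angiotensin system listed, 23 were in the table and 19 were tested. In MI+PBS against sham 5 rose (22.6% of all genes did), 5 fell (21.8% of all genes) and 9 did not pass, shares near those of all genes, with a median log2 fold change of 0.14 against -0.01 over all genes. The aminopeptidase gene Anpep (0.64 ± 0.06), the carboxypeptidase gene Ctsa (0.53 ± 0.06) and the prorenin receptor gene Atp6ap2 (0.49 ± 0.08) rose, with adjusted p-values from 1.71e-05 to 0.000424. Exons of Ctsa share 17.37% of their bases with other genes. The mineralocorticoid receptor gene Nr3c2 (-0.93 ± 0.15) and the neprilysin gene Mme (-0.65 ± 0.12), whose product degrades angiotensins and natriuretic peptides, fell (adjusted p = 0.000387 and 0.000889 by limma).

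With agrin, 0 of these 19 passed against MI+PBS by limma, where 1.64% of all genes did, and 4 had an unadjusted p under 0.05 (18.8% of all genes). Against sham 5 rose (15.4% of all genes) and 4 fell (13.2% of all genes). The medians were -0.09 and 0.05, each against 0.00 over all genes. Nr3c2 (-1.08 ± 0.15) and Mme (-0.51 ± 0.12) fell, and Anpep (0.45 ± 0.06), Ctsa (0.43 ± 0.06) and the aminopeptidase gene Rnpep (0.29 ± 0.07) rose in MI+Agrin against sham, with adjusted p-values from 0.000356 to 0.0103. The mast cell protease genes Cma1 and Mcpt4, of the chymase family, were low and variable. Cma1 averaged 42.3 ± 41.4 normalized counts in MI+Agrin, 38.8 ± 16.8 in MI+PBS and 26.9 ± 17.0 in sham hearts (SD, n = 4 each). Mcpt4 averaged 30.7 ± 28.0 in MI+Agrin, 31.7 ± 11.5 in MI+PBS and 28.5 ± 20.4 in sham hearts (SD, n = 4 each). The type 2 receptor gene Agtr2 was under the mean of 5, at no more than 4.26 in any library. The renin gene Ren1 was not among the 16218 genes.

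Of 6 further endothelin genes, 4 were in the table and 3 tested. Ece2, a second converting enzyme, rose in MI+PBS against sham (0.52 ± 0.12, adjusted p = 0.00314), the 1 of 3 that passed (44.4% of all genes), with a list median of 0.40. Because Gm49333 overlaps 57.48% of its exon bases, this value is uncertain. By limma 0 of 3 passed in MI+Agrin against MI+PBS (1.64% of all genes) and 0 of 3 against sham (28.6% of all genes), with 1 and 0 at an unadjusted p under 0.05 and medians of 0.03 and 0.18.

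Downstream of the receptors, which signal mainly through Gq proteins, 22 genes were tested. In MI+PBS against sham 6 rose (22.6% of all genes) and 6 fell (21.8% of all genes), shares near those of all genes, with a median of -0.06 against -0.01 over all genes. Arrb2 (1.03 ± 0.10), a beta-arrestin that turns receptors off, and the protein kinase C gene Prkcd (0.53 ± 0.09) rose. Plcb3, a phospholipase C of this pathway (0.26 ± 0.05), and the receptor kinase gene Grk6 (0.28 ± 0.06) rose and the G protein brake Rgs4 fell (-0.56 ± 0.12), with adjusted p-values from 2.97e-05 to 0.00213 over these 5. In MI+Agrin against MI+PBS 3 of the 22 rose (0.751% of all genes) and none fell (0.892% of all genes), with a median of 0.06 against 0.00 over all genes. An unadjusted limma p under 0.05 was found for 6 of the 22 (18.8% of all genes). The 3 that rose were the phospholipase C gene Plcb4 (0.34 ± 0.07, adjusted p = 0.0347), Rgs3 (0.37 ± 0.08, adjusted p = 0.0442) and Rgs4 (0.52 ± 0.12, adjusted p = 0.0468). In MI+Agrin against sham 5 rose (15.4% of all genes) and 1 fell (13.2% of all genes), with a median of 0.01 against 0.00 over all genes. The log2 fold change of Arrb2 was 0.80 ± 0.10, that of Itpr1, a calcium release channel, -0.39 ± 0.06, that of Plcb3 0.24 ± 0.05, that of Prkcd 0.36 ± 0.09 and that of Arrb1 0.26 ± 0.07 (adjusted p from 0.000378 to 0.0113).

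Genes known to be induced by angiotensin II or endothelin-1, most of them also by other signals, formed the last list, with 19 tested. In MI+PBS against sham 14 rose (22.6% of all genes) and none fell (21.8% of all genes), with a median of 1.30 against -0.01 over all genes. Timp1 (2.72 ± 0.18), Myc (1.80 ± 0.17), Col1a1 (1.73 ± 0.18) and Tgfb1 (0.80 ± 0.09) rose, with adjusted p-values from 3.92e-06 to 4.91e-05. In MI+Agrin against MI+PBS, Myc fell, with a log2 fold change of -0.77 ± 0.17 (adjusted p = 0.0442), and 18 did not pass (1.64% of all genes passed). The median was -0.29 against 0.00 over all genes, and 8 of the 19 had an unadjusted limma p under 0.05 (18.8% of all genes). Against sham 11 rose in MI+Agrin (15.4% of all genes) and none fell (13.2% of all genes), with a median of 0.83 against 0.00 over all genes, among them Timp1 (2.14 ± 0.18), Col1a1 (1.44 ± 0.18), Il6 (1.72 ± 0.27) and Col3a1 (0.996 ± 0.16), with adjusted p from 3.58e-05 to 0.00116. Over all 4 lists, the 4 genes that passed in MI+Agrin against MI+PBS became 0 to 3 when any 1 library was left out, with 0 without MI+Agrin replicate 1, 3 or 5, MI+PBS replicate 2 or 5, or sham replicate 2. It was also 0 with edgeR and 5 with DESeq2.

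The genes whose profile over the 12 libraries lay nearest to each member were found by the root mean square difference of log2 values after centring each gene on its own mean, among 12361 genes with a mean of at least 50. Crhr2, a receptor of urocortins, was nearest to Agtr1a (0.13 log2 units, where the median gene was at 0.51), followed by Entpd5 and Lrrc3b (both 0.14). Ednrb lay nearest to the nuclear noncoding RNA Neat1 (0.12, median gene 0.42), then Lin7a and Uap1 (both 0.13). Ace lay nearest to the noncoding RNA Malat1, Adck4 and Stk38 (all 0.08, median gene 0.31). Edn1 lay nearest to Slc2a10, Creld2 and Fbxo17 (0.17 to 0.18, median gene 0.44). Ednra lay nearest to the nuclear receptor gene Pparg, Slc25a22 and Cyp4b1 (0.11 to 0.12, median gene 0.31) and Ece1 to Rpf2, Clint1 and Gtpbp8 (0.07 to 0.08, median gene 0.23). Agt lay nearest to Fam65c, Ppargc1a and Lrg1, at 0.32 to 0.35 log2 units, where the median gene was at 0.66. Such distances depend on the spread of the member about its own mean, which was 0.63 for Agt and 0.14 for Ece1. They therefore do not rank the members by how close their nearest genes were.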

How the data were processed

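Poly-A RNA was read as 61 bp single reads on a HiSeq 2500. The genome build was mm10 and the tools were DESeq2 1.10.1, STAR 2.4.2a, HTSeq and cutadapt, per the submitters' processing notes, which state no roles, annotation or strand setting. The deposited signal values are normalized counts per the file headers. In 11 libraries 99.94% to 99.99% of values came out as whole reads (within 0.0055 normalized counts) after division by a step of that library, giving recovered reads for edgeR 4.0.16 and DESeq2 1.42.0. Sham replicate 2 reached 99.99% too, at a step of 1.0108, but was not accepted as recovered and was left out of both. MI+Agrin replicate 1, with a similar step of 1.0134, was accepted, so the edgeR and DESeq2 fits lack a sham library that limma used. On recovered reads edgeR called 5834, 192 and 3309 genes and DESeq2 6080, 602 and 3897 in MI+PBS against sham, MI+Agrin against MI+PBS and MI+Agrin against sham.

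Genes with a mean of at least 5 were kept, 1 was added before log2, and group means of all 12 libraries were fitted with limma-trend (limma 3.58.1 under R 4.3.3), which called 6616, 245 and 4261 genes. Each group had 4 animals per the series' design text, and the spread behind the p-values is that between animals. That text also lists an infarcted wild-type group, not analysed here. The table's unit being a signal, the branch for normalized values was used. The steps were tested on simulated data. Members, lists and tests were chosen with earlier results of these data known. Named genes were the members, Agtr1b, Agtr2, Ren1, Cma1, Mcpt4, up to 5 genes with the smallest p per list and comparison, and the 3 nearest profiles per member. Some results under this rule are not reported here. Lengths and coordinates come from GENCODE M21 (GRCm38) and promoters from RefSeq (GRCm38.p6).

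The alternatives were other pseudocounts and filters, TMM factors, limma without trend, edgeR, DESeq2, 8 libraries, a replicate block, quality weights, and libraries left out.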

Additional observations from a re-analysis of the deposited data

Results flagged for a closer look

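A library stood apart from the other 3 of its group, by a gap past Dixon's 95% critical value, in 7 of 144 groups screened, where chance gives about 1 in 20. Among the members it was Agtr1a in sham replicate 4, with 1189.81 normalized counts where the remaining sham hearts had 868.85 to 882.6. Without it Agtr1a still fell in both comparisons with sham (-0.90 and -0.78, limma adjusted p = 0.00055 and 0.00332).

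Among the pathway genes, Mcpt4 stood at 72.27 in MI+Agrin replicate 4 (others 11.84 to 21.63) and Hsd11b2 at 26.35 in MI+Agrin replicate 1 (others 10.35 to 12.83). Gna13 stood at 2038.13 in MI+Agrin replicate 5 (others 1729.95 to 1771.16), Gna12 at 1971 in MI+PBS replicate 2 (others 2494.96 to 2596.09) and Plcb4 at 975.66 in MI+PBS replicate 3 (others 1106.84 to 1126.15). Ece2 stood at 252.7 in sham replicate 2 (others 192.31 to 201.94).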

How the results depend on the processing

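Of 504 values of the members (21 fold changes under 24 alternatives), 487 kept their direction and side of the threshold. The others were those of Agt, Ece1, Edn1 and Ednra already given, Ednra in MI+Agrin against sham, which passed with quality weights (adjusted p = 0.0304) and without both MI+Agrin replicate 1 and MI+PBS replicate 2 (0.0362), and sign changes of values near 0. These were Ednra in MI+PBS against sham without MI+PBS replicate 3 (-0.0518) or sham replicate 2 (-0.0176) and Ece1 in MI+Agrin against sham with quality weights (-0.0053), without MI+Agrin replicate 1 (-0.0074), without sham replicate 3 (-0.0248) or without both MI+Agrin replicate 1 and MI+PBS replicate 2 (-0.0074). Without 1 library each, these ranged from -0.0518 to 0.2089 and from -0.0248 to 0.0651. The cause of the changes with quality weights was not tested.

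In MI+Agrin against MI+PBS the count of all genes past the threshold, 245, was 602 with DESeq2, 93 with only the 8 libraries of both groups, 137 without both MI+Agrin replicate 1 and MI+PBS replicate 2 and 137 to 327 without 1 library each. That of pathway genes, 4, was 0 with limma without trend, edgeR, quality weights or without both these libraries, 1 with 8 libraries and 0 to 3 without 1 library each. With the replicate block these counts were 75 and 0. The labels do not say that a number marks a shared batch. Deviations of 9 same-numbered pairs correlated from -0.285 to 0.121, and those of 39 pairs with other numbers from -0.223 to 0.302. Such correlations cannot tell whether a number marks a shared batch, and the main fit did not pair the samples. With the block the members passed as without it, with Agt at 0.68 in MI+PBS against sham (adjusted p = 0.047). Without 1 library each, the exact permutation p of the Ednra to Ednrb ratio in MI+PBS against sham was 0.0571. That is the smallest p that the remaining libraries allow, so it could not pass. The log2 differences ran from -0.7668 to -0.568.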

Other observations

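Scgb1a1, a secretory gene of airway epithelium, stood at 661.06 normalized counts in sham replicate 2. Besides Alb, the liver products Apoa1 and Fgb were highest in MI+PBS replicate 1, with 19.44 and 12.63 normalized counts, and reached no more than 3.19 elsewhere.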
